A study of Mus musculus with 12 samples.

Results

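Deptor and the genes of the mTOR complexes were followed through RNA sequencing of the newborn mouse skull. The set held 9 genes of the 23358 in the deposited count table. It comprised Deptor, Mtor, Rptor, Rictor, Mlst8, Akt1s1, Mapkap1, Prr5 and Prr5l, and all 9 were counted highly enough to enter the fit. Deptor was chosen because its counts were higher in mutants than in wild type in these same samples, so its values are given as a description with no test. The other 8 genes, called the partners below, were taken by name because their proteins sit in the same complexes, and the question was whether their RNA moved with genotype.

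Samples were taken at postnatal day 3 from frontal bone, and they included nasal bone and the sutures named coronal and frontonasal. Wild type mice and mice labelled FGFR2C342Y/+, heterozygous for the C342Y change in the receptor Fgfr2 and called mutants below, were sampled on 2 inbred strains, C57BL/6 and BALB/c. Each of the 4 groups had 3 samples. The allele is the one used to model Crouzon syndrome, a disorder of early suture fusion, and gene counts do not show it, so the genotype labels were not checked here. The labels do not say how many animals went into a sample, so the p-values measure the spread between these samples, which may be partly technical.

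The kinase mTOR works in a pair of complexes, mTORC1 and mTORC2, that share the catalytic subunit Mtor and its partner Mlst8. mTORC1 contains Rptor (raptor), which recruits substrates, and Akt1s1 (PRAS40), an inhibitor that insulin signalling relieves; it raises protein synthesis and restrains autophagy in answer to growth factors and amino acids. mTORC2 contains Rictor and Mapkap1 (mSin1), with Prr5 (protor-1) or Prr5l (protor-2), and phosphorylates Akt and related kinases. Deptor binds mTOR in both complexes and inhibits its kinase activity, and its protein is destroyed after growth factor stimulation. In bone, mTOR signalling is known to act in osteoblast differentiation, in chondrocyte growth and in osteoclasts.

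The libraries held 27181658 to 46521546 counts in genes. Run identifiers in the sample descriptions were the same for all C57BL/6 samples and different from those of the BALB/c samples, so strain and sequencing run cannot be told apart. Of the 10 osteoblast markers, Col1a1 and Runx2 among them, none was without counts in all libraries of a group, so markers of the labelled tissue were detected. Their summed level was 113743 to 196864 CPM (counts scaled to a library of 1000000 counts) in C57BL/6 wild type and 219475 to 262792 CPM in C57BL/6 mutants, without overlap, and 185195 to 210848 CPM over both BALB/c groups. Over 11 marker lists, the summed levels of 10 did not overlap between genotypes in C57BL/6 (all but neutrophil), and those of 2 did not in BALB/c (erythroid and neutrophil). Of all single genes, 19.7% were higher and 21.9% lower in C57BL/6 mutants without overlap. In BALB/c these shares were 9.93% and 10%, so 2 of 11 lists is near them. The summed level of 8 osteoclast markers was 3492 to 4261 CPM in C57BL/6 wild type and 7345 to 8195 CPM in C57BL/6 mutants, against 4206 to 5000 CPM over both BALB/c groups. Chondrocyte markers ran from 4876 to 7001 CPM in C57BL/6 wild type and from 262 to 2640 CPM in C57BL/6 mutants, and secretory and basal epithelium markers from 149 to 357 CPM and from 2.76 to 61.3 CPM. Of the 8 listed erythroid markers, 7 were in the table, and they summed to 199 to 266 CPM in C57BL/6 wild type, 53.1 to 82.4 CPM in C57BL/6 mutants, 219 to 336 CPM in BALB/c wild type and 431 to 528 CPM in BALB/c mutants. Neutrophil markers ran from 550 to 649 CPM in BALB/c wild type and from 771 to 845 CPM in BALB/c mutants. Skeletal muscle markers ran from 5.36 to 63.4 CPM in C57BL/6 wild type and from 1.504 to 3.99 CPM in C57BL/6 mutants, and 1 BALB/c mutant library, replicate 16, stood apart at 366 CPM against 2.36 to 22.04 CPM in replicates 18 and 17. Chondrocyte markers stood at 4799 CPM in BALB/c mutant replicate 17, against 580 to 1684 CPM in the other BALB/c libraries. Y-linked genes reached at least 10 CPM in 3 of 3 C57BL/6 wild type libraries and in 1 of 3 in each other group. The C57BL/6 genotype comparison and the wild type strain comparison are therefore partly confounded with sex, as read from these genes. In bulk tissue, fewer cells of a type and less RNA per cell cannot be told apart. The part of these markers in the results below was not tested. Some fits below took a marker sum as a covariate. Between genotypes in C57BL/6 the ciliated cell, erythroid and skeletal muscle sums did not overlap, so such fits cannot separate the marker level from genotype. Between strains the same holds for the ciliated cell sum in wild type and the erythroid sum in mutants.

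Akt1s1, Rictor and Prr5l are the partners that were higher in C57BL/6 mutants in the comparison below. Their promoters are shown for that reason, and whether the genes move together was not tested. Each sequence is the 250 bases before a RefSeq start on build GRCm38.p6, written 5′ to 3′ on the gene's strand. Akt1s1 is on the plus strand at chr7:44850122-44850371, Rictor on the plus strand at chr15:6708131-6708380, and Prr5l on the minus strand at chr2:101838981-101839230. Capitals mark matches on either strand to the motifs searched, which were the ETS letters CCGGAAG, the E-box letters CACGTG, the CCAAT box, the AP-1 letters TGACTCA, the GC box letters GGGCGG and the TATA box letters TATAAA.
Akt1s1: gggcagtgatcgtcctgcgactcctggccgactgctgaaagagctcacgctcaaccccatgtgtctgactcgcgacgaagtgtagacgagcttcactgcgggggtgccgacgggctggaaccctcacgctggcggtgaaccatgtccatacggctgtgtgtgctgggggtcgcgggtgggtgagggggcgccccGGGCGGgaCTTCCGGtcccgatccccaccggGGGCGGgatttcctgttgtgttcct
Rictor: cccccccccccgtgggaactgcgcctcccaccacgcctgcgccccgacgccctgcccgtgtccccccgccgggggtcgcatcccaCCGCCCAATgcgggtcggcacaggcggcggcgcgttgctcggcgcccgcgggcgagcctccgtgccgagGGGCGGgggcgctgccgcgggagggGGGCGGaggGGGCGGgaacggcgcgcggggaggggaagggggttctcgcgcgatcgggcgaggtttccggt
Prr5l: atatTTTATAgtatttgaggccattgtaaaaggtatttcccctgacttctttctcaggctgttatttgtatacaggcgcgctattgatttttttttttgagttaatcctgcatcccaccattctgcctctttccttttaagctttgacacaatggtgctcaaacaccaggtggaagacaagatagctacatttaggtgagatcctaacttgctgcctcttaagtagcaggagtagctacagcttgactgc
The Akt1s1 window held 1 ETS match and 2 GC boxes, and the Rictor window held 4 GC boxes and 1 CCAAT match that overlaps the first of them. The Prr5l window held 1 TATA match. RefSeq gives 3 Prr5l starts, and the window shown lies next to the start that the count table gives for the gene. The window at chr2:101883028-101883277 held 1 GC box and 1 CCAAT match, and that at chr2:101797708-101797957 held 1 CCAAT match and no GC box. Whether Prr5l has a GC box in common with Akt1s1 and Rictor therefore depends on the start chosen. GC boxes also occurred in other partners, which did not pass the test there: Mtor held 2, each Mapkap1 window 2, and the Prr5 windows 1 and 3. Rptor and Mlst8 held none. The ETS letters also occurred in Mtor and in 1 Mapkap1 window. Over the 32851 RefSeq promoters of the same length, 6.91% held the ETS letters, 32.7% the GC box, 33.8% CCAAT and 12.4% TATA. The Rictor window also lies next to the count table's start, whereas the Akt1s1 window lies inside the gene as counted. The windows differed in base composition, with 66.4% G or C and 23 CpG in Akt1s1, 81.2% and 40 CpG in Rictor, and 40.4% and 2 CpG in Prr5l. Promoters were matched for 8 of the 9 genes, and Deptor is named only. A match is a run of letters and not a bound site.

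Deptor (chr15:55112483-55254202 on mm10, plus strand) was higher in mutants than in wild type in both strains, and it was far lower in BALB/c than in C57BL/6. In C57BL/6 wild type its level was 4.00, 3.13 and 3.27 CPM in replicates 1, 2 and 3. In C57BL/6 mutants it was 5.38, 4.61 and 7.06 CPM in replicates 4, 5 and 6. Every C57BL/6 mutant was therefore above every C57BL/6 wild type library, as for 19.7% of all genes, with replicate 6 the highest of the 12 libraries. In BALB/c wild type the level was 0.451, 0.865 and 0.527 CPM in replicates 13, 14 and 15. In BALB/c mutants it was 1.98, 2.24 and 3.20 CPM in replicates 16, 17 and 18. Again the groups did not overlap, as for 9.93% of all genes with mutants higher, and the highest BALB/c mutant only just passed the lowest C57BL/6 wild type library.

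**Figure D1:**
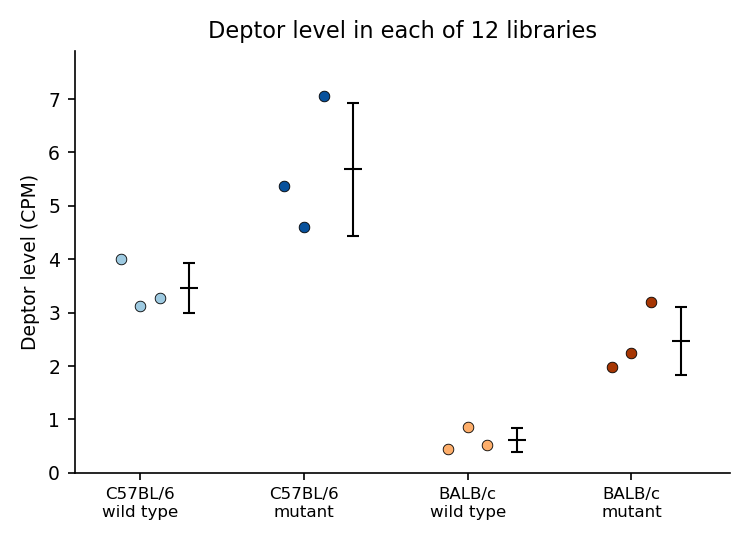
Deptor level in CPM on the y axis for each of 12 libraries, grouped by strain and genotype; each point is 1 library, and the bar to its right is the mean ± SD of the group (n = 3). In each strain the 3 mutant points lie above the 3 wild type points, and the BALB/c wild type points lie lowest, between 0.451 and 0.865.

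The BALB/c wild type values rest on few reads. All deposited counts were even, as happens when both mates of a pair are counted, so pairs are the better unit for counting error. Deptor had 6 pairs in replicate 13 (exact Poisson 95% interval 2.20 to 13.1), 14 in replicate 14 (7.65 to 23.5) and 9 in replicate 15 (4.12 to 17.1), against 33, 52 and 65 pairs in BALB/c mutants. These intervals cover counting error only. The fitted difference between mutant and wild type was 0.71 on the log2 scale in C57BL/6 (SE 0.26), a 1.64-fold higher level. In BALB/c it was 2.00 (SE 0.29), or 3.99-fold, and averaged over strains 1.35 (SE 0.20). BALB/c wild type was 5.59-fold lower than C57BL/6 wild type, and BALB/c mutants were 2.29-fold lower than C57BL/6 mutants. In the authors' deposited table the log2 fold change of Deptor was 0.56 in C57BL/6 and 1.70 in BALB/c; it comes from these same samples and is no independent measurement.

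Deptor was the least abundant of the 9 genes per unit length. On the deposited RPKM scale it averaged 0.846 ± 0.160 (SD, n = 3) in C57BL/6 wild type, 1.24 ± 0.262 in C57BL/6 mutants, 0.155 ± 0.0559 in BALB/c wild type and 0.635 ± 0.162 in BALB/c mutants. Akt1s1 was the most abundant in every group, from 17.1 RPKM in C57BL/6 wild type to 28.1 RPKM in BALB/c wild type, and Mapkap1 came next, from 10.6 to 13.1 RPKM. The other subunits lay between these and Deptor. In C57BL/6 wild type the order was Rptor (6.81 RPKM), Mtor (5.89), Prr5 (5.11), Mlst8 (4.78), Prr5l (4.68) and Rictor (3.05), and the ranges of neighbours from Mtor to Prr5l overlapped. In BALB/c wild type Prr5l (7.27 RPKM) and Prr5 (6.93) stood with Rptor (6.92), their ranges overlapping, while Mtor stood seventh at 3.64 RPKM. As a percentage of Mtor RPKM in the same library, Deptor was 14.3 ± 1.54 in C57BL/6 wild type, 22.5 ± 4.05 in C57BL/6 mutants, 4.23 ± 1.35 in BALB/c wild type and 14.3 ± 2.89 in BALB/c mutants.

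Among the partners in C57BL/6, Akt1s1, Rictor and Prr5l were higher in mutants by 1.19- to 1.27-fold, and the other 5 did not pass the test. These are an inhibitor of mTORC1, the defining subunit of mTORC2 and an mTORC2 accessory subunit. Of 8 partners, 3 were called at an adjusted p under 0.05, all higher (edgeR's quasi-likelihood test, Benjamini-Hochberg adjustment over 16190 genes). Over all genes tested, 23.9% were called in this comparison and 11.3% were called higher. The median log2 change of the 8 partners was 0.09, against 0.00 over all genes. Which partners were called depends on the scaling. Scaled to total counts instead of by TMM, which moved the median change of all genes to -0.20, 2 partners were called, both lower: Mlst8 at -0.33 and Mapkap1 at -0.24, with adjusted p of 0.028 and 0.00861. On that scale 28.9% of all genes were called in this comparison, and 25.1% were called lower. Akt1s1, Rictor and Prr5l then stood at 0.11, 0.05 and 0.15 and were not called. With the ciliated cell or the erythroid marker sum as a covariate 0 of 8 were called, and 1 and 4 of all genes.

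Akt1s1 (chr7:44849224-44855421, plus strand) had 34.86, 41.19 and 40.05 CPM in C57BL/6 wild type and 47.7, 46.8 and 48.4 CPM in C57BL/6 mutants. The groups did not overlap, and the 3 mutant libraries lay within 2 CPM of each other. The log2 difference was 0.30 (SE 0.067), with an adjusted p of 0.00967 from edgeR, and it stayed called with any 1 of the 6 C57BL/6 libraries left out, at adjusted p of 0.00966 to 0.0375. The call was lost when only the C57BL/6 samples were fitted (adjusted p = 0.062). In BALB/c it had 58.3, 59.3 and 65.7 CPM in wild type and 61.0, 59.2 and 58.9 CPM in mutants. These ranges overlapped (log2 difference -0.04, SE 0.067, adjusted p = 0.903), and all 6 BALB/c libraries were above all 6 C57BL/6 libraries, as for 12.4% of all genes.

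Rictor (chr15:6708381-6800400, plus strand) had 33.7, 33.4 and 35.2 CPM in C57BL/6 wild type and 37.5, 43.7 and 40.2 CPM in mutants. The ranges did not overlap, and the log2 difference was 0.25 (SE 0.072, adjusted p = 0.0291 with edgeR). The call was lost without C57BL/6 wild type replicate 1 (0.0721) or 2 (0.0727), without mutant replicate 5 (0.116) or 6 (0.0779), with only the C57BL/6 samples (0.0583) and with the Y-linked (0.0738) or skeletal muscle (0.126) marker sum as a covariate, all given as adjusted p. In BALB/c the levels were 27.3, 28.8 and 29.7 CPM in wild type and 27.3, 27.9 and 31.6 CPM in mutants, which overlapped (log2 difference 0.02, SE 0.073).

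Prr5l (chr2:101714285-101838980, minus strand) was higher in C57BL/6 mutants and showed the opposite sign, without passing the test, in BALB/c. It had 22.5, 24.9 and 27.7 CPM in C57BL/6 wild type and 31.4, 29.4 and 34.4 CPM in mutants, with no overlap and a log2 difference of 0.34 (SE 0.086, adjusted p = 0.0158 with edgeR). That call was lost without wild type replicate 1 (adjusted p = 0.0522), without mutant replicate 6 (0.0767), with only the C57BL/6 samples (0.0801) and with the skeletal muscle sum as a covariate (0.0661). In BALB/c it had 39.4, 37.9 and 34.8 CPM in wild type and 30.5, 33.8 and 33.3 CPM in mutants. Here every mutant was below every wild type library, as for 10% of all genes, but the log2 difference of -0.20 (SE 0.085) was not called (adjusted p = 0.397).

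Neither subunit of the shared core was called by genotype in either strain with TMM scaling, while Mlst8 was lower in C57BL/6 mutants with total counts, as given above. Mtor (chr4:148448582-148557685, plus strand) had 62.3, 58.4 and 61.2 CPM in C57BL/6 wild type and 57.7, 63.8 and 67.8 CPM in C57BL/6 mutants, which overlapped (log2 difference 0.06, SE 0.089, adjusted p = 0.676 with edgeR). In BALB/c it had 31.8, 37.4 and 39.4 CPM in wild type and 38.6, 44.7 and 45.3 CPM in mutants. Here 2 of 3 mutants were above all wild type libraries, and the log2 difference of 0.24 (SE 0.090) did not pass after adjustment (adjusted p = 0.319). All 6 BALB/c libraries were below all 6 C57BL/6 libraries, as for 12.1% of all genes. Mlst8 (chr17:24473550-24479078, minus strand) stayed between 16.9 and 20.7 CPM in all 12 libraries, at log2 differences of -0.13 in C57BL/6 and 0.06 in BALB/c, neither called with TMM scaling. Its exons overlap those of the neighbouring gene Bricd5, and 16.4% of its 50-base words occur there, so part of its count is uncertain.

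The remaining partners were not called in either strain with TMM scaling, and Mapkap1 was called lower in C57BL/6 mutants with total counts. Rptor (chr11:119602995-119899591, plus strand) had 54.4, 59.8 and 55.6 CPM in C57BL/6 wild type and 60.1, 63.7 and 62.0 CPM in mutants. All 3 mutants were above all wild type libraries, as for 19.7% of all genes, but the log2 difference of 0.13 (SE 0.074) had an adjusted p of 0.22 with edgeR. Mapkap1 (chr2:34432025-34624950, plus strand) had log2 differences of -0.05 in C57BL/6 and -0.08 in BALB/c. Prr5 (chr15:84680998-84703673, plus strand), at 9.66 to 17.4 CPM, had log2 differences of 0.04 and 0.12. The ratio of Rictor to Rptor RPKM, a comparison of the 2 defining subunits, was 0.449 ± 0.0291 (SD, n = 3) in C57BL/6 wild type, 0.486 ± 0.0231 in C57BL/6 mutants, 0.387 ± 0.0353 in BALB/c wild type and 0.376 ± 0.0301 in BALB/c mutants. The genotype difference was slightly above the replicate SD in C57BL/6 and below it in BALB/c. In both strains the ranges of the ratio overlapped between genotypes, and no test was run on it.

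**Figure D2:**
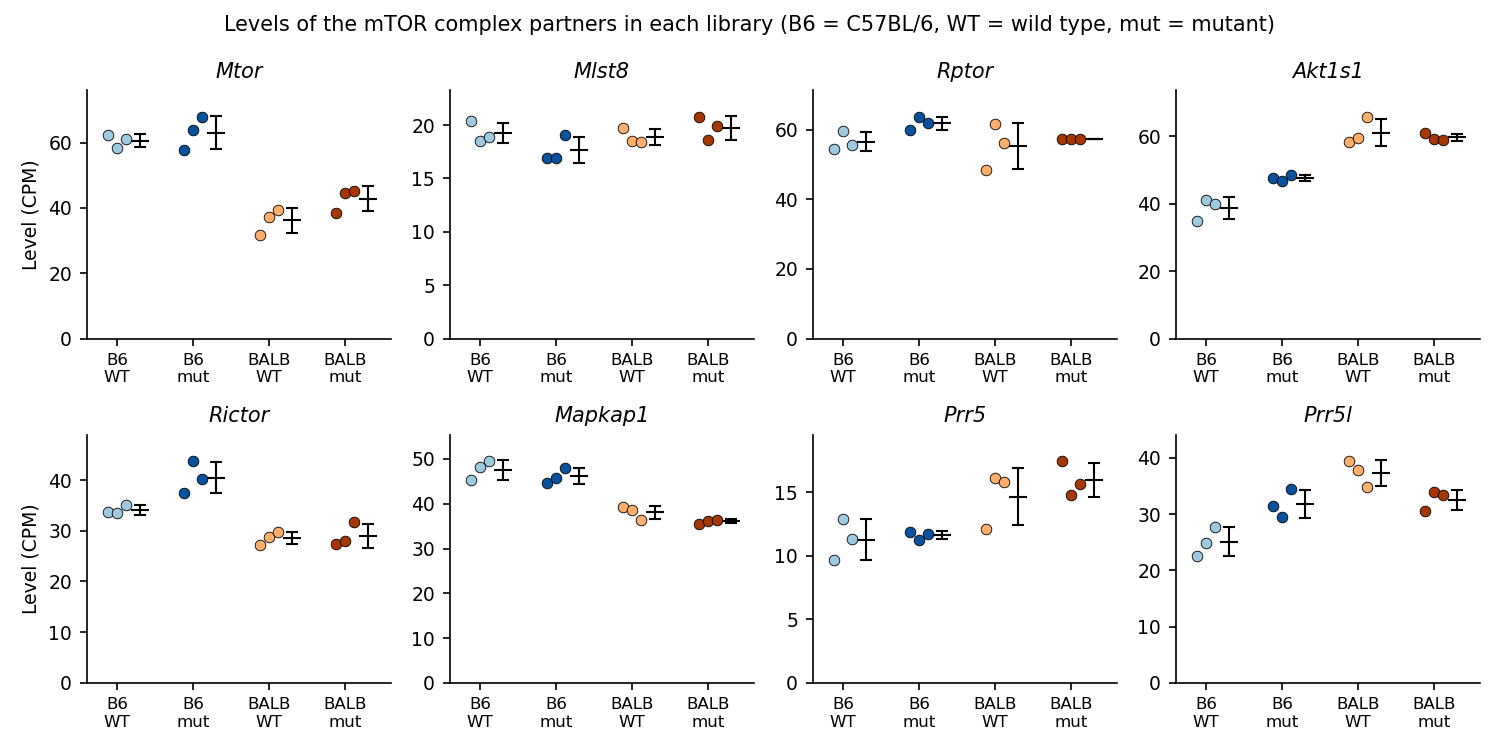
Level of each of the 8 partners in CPM (y axes, each starting at 0) in the 12 libraries; points are libraries and bars the group mean ± SD (n = 3). Akt1s1, Rictor and Prr5l are higher in the 3 C57BL/6 mutants than in the 3 C57BL/6 wild type libraries, and Mtor is lower in all BALB/c than in all C57BL/6 libraries.

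In BALB/c, where the Deptor difference was larger, 0 of 8 partners were called by edgeR, and 0 were called by DESeq2. At an unadjusted p under 0.05 there were 2, Mtor (higher) and Prr5l (lower), against 11.7% of all genes. The background was also low, with 0.136% of all genes called by edgeR and 2% by DESeq2, and a count of 0 of 8 is near it. Averaged over strains, 0 of 8 were called by edgeR, against 7.99% of all genes, and 0 by DESeq2, against 13.5%. At an unadjusted p under 0.05 there were 3 of 8, against 25.3% of all genes. The averaged log2 changes were largest for Mtor (0.15, adjusted p = 0.161), Rictor (0.13, adjusted p = 0.13) and Akt1s1 (0.13, adjusted p = 0.105).

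The genotype effects of Akt1s1 and Prr5l differed between strains. Defined as the effect in BALB/c minus that in C57BL/6, the difference was -0.34 for Akt1s1 (SE 0.095, adjusted p = 0.0455) and -0.54 for Prr5l (SE 0.121, adjusted p = 0.0213) in edgeR's interaction test. Of 8 partners, these 2 were called, against 10% of all genes, and both were lower, against 4.58%. With total-count scaling, which moved the median of all genes to 0.24, 0 of 8 were called, against 11.4% of all genes. For Rictor the difference was -0.23 and was not called (adjusted p = 0.161), so its effects in the 2 strains were not shown to differ. The Akt1s1 call was lost in 9 of the 12 fits that each left out 1 library, at adjusted p of 0.0561 to 0.101, and also with no filter on low counts (0.0679), with the GC and length offsets described below (0.0787) and with the skeletal muscle sum (0.124). The Prr5l call was lost in 4 of them, at adjusted p of 0.0637 without replicate 6 and 0.0566 without replicate 16, both mutants, and 0.0575 without replicate 13 and 0.0511 without replicate 14, both BALB/c wild type, and was lost with the muscle sum (0.149).

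**Figure D3:**
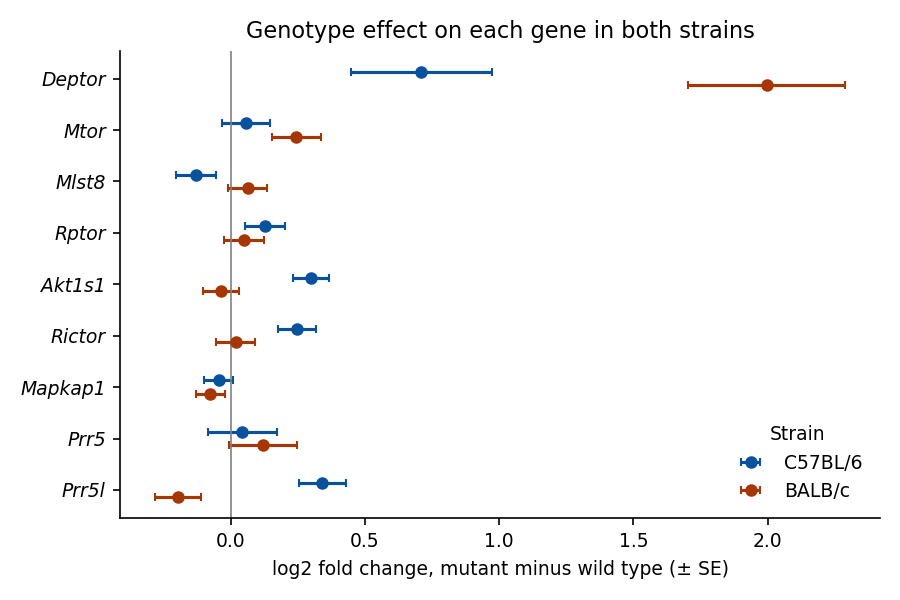
Genotype effect as a log2 fold change, mutant minus wild type (x axis), for Deptor and each partner in C57BL/6 (blue) and BALB/c (brown); bars are ± 1 SE of the fit over 12 libraries. Deptor stands at 0.71 and 2.00, while every partner lies between -0.20 and 0.34, and Prr5l lies on opposite sides of 0 in the strains.

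More partners were called between strains than between genotypes, as was so for all genes, and strain cannot be told apart from sequencing run. In wild type, Mtor was lower in BALB/c (log2 difference -0.75, adjusted p = 7.12e-05 with edgeR), as were Mapkap1 (-0.32, adjusted p = 0.000601) and Rictor (-0.25, adjusted p = 0.0132). Akt1s1 (0.66, adjusted p = 2.43e-05), Prr5l (0.58, adjusted p = 0.00029) and Prr5 (0.38, adjusted p = 0.0278) were higher in BALB/c. The inhibitor Akt1s1 and the catalytic subunit Mtor thus differed between strains in opposite directions. In all, 6 of 8 partners were called, against 48.5% of all genes, with 3 higher in BALB/c (22.8% of all genes) and 3 lower (25.6%). In mutants, 5 of 8 were called, against 36.9% of all genes. Mtor (-0.56), Rictor (-0.48) and Mapkap1 (-0.35) were lower in BALB/c, as 18.9% of all genes were, and Prr5 (0.46) and Akt1s1 (0.32) were higher, as 18% were. Prr5l did not pass in mutants (0.04, adjusted p = 0.759), nor did Rptor or Mlst8 in either genotype, although Mlst8 passed in mutants with total counts (0.28, adjusted p = 0.0398) and without C57BL/6 replicate 6 (0.23, adjusted p = 0.0447). With the ciliated cell sum as a covariate the wild type calls of Rictor, Prr5 and Prr5l were lost, and 8.29% of all genes were called. With the erythroid sum all 5 calls in mutants were lost, and 9 of all genes were called.

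Gene length moved with strain. The median BALB/c minus C57BL/6 log2 difference in wild type ran from 0.26 in the first decile of listed length, the shortest genes, to -0.36 in decile 10, the longest. Mtor, Rptor and Rictor belong to decile 10, whereas Akt1s1 and Prr5 are in decile 3. In a fit with offsets for GC content and length, added after the data were seen, Mtor stayed lower in BALB/c wild type (-0.48, adjusted p = 0.00117). In that fit Akt1s1 (0.33, adjusted p = 0.000752) and Prr5l (0.70, adjusted p = 0.000101) stayed higher. Rictor changed sign to 0.17 and was not called (adjusted p = 0.0534), and Prr5 went to 0.04 (adjusted p = 0.833). In mutants the offsets kept 2 of the 5 calls, Mtor (-0.32, adjusted p = 0.0125) and Mapkap1, and ended those of Rictor (-0.11, adjusted p = 0.213), Akt1s1 (0.11, adjusted p = 0.145) and Prr5 (0.22, adjusted p = 0.177). The Prr5 call in wild type was also lost in 4 fits that left out 1 library: C57BL/6 replicate 1 (adjusted p = 0.0901) or 3 (0.0561), or BALB/c replicate 14 (0.1) or 15 (0.0931). It was lost with total counts (0.102) and with only the groups compared (0.0559) as well. In mutants the Prr5 call was lost without BALB/c replicate 16 (0.0568) and with the muscle sum (0.127). The GC and length offsets left the Deptor genotype difference at 0.70 in C57BL/6 and 1.99 in BALB/c.

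**Figure D4:**
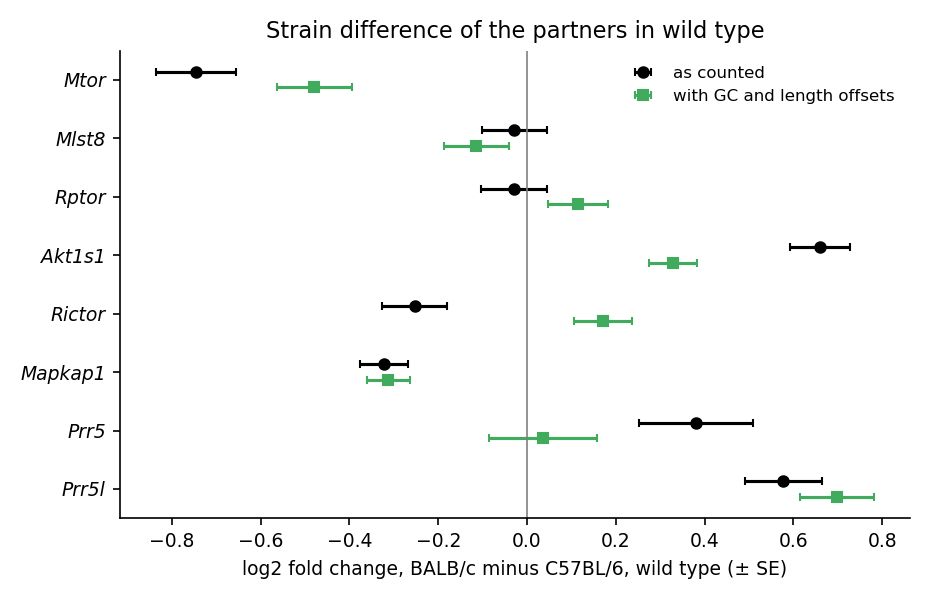
Strain difference in wild type as a log2 fold change, BALB/c minus C57BL/6 (x axis), for each partner, as counted (black circles) and with offsets for GC content and length (green squares); bars are ± 1 SE. Mtor stays below 0 and Akt1s1 and Prr5l above 0 in both fits, while Rictor moves from -0.25 to 0.17 and Prr5 from 0.38 to 0.04.

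The wider pathway was described through 71 genes in 7 lists that hold inputs, sensors and targets of the complexes. All 71 passed the filter on low counts. In C57BL/6, 16 were called, 13 higher and 3 lower in mutants, which is 22.5% of the list against 23.9% of all genes. The list's median log2 change was 0.09, against 0.00 over all genes. Pik3r1, the regulatory subunit of PI 3-kinase, rose from 133.0 ± 7.999 to 182 ± 12.1 CPM (log2 difference 0.46, adjusted p = 0.000877). Flcn (folliculin), which activates RagC and RagD at the lysosome, rose from 33.0 ± 0.480 to 42.8 ± 3.00 CPM (0.38, adjusted p = 0.002). Pdcd4, a translation inhibitor degraded downstream of mTORC1, rose from 65.9 ± 1.88 to 82.9 ± 8.95 CPM (0.33, adjusted p = 0.00675). Scaled to total counts, Pik3r1 kept its call (0.26, adjusted p = 0.00471), whereas Flcn (0.18, adjusted p = 0.0841) and Pdcd4 (0.13, adjusted p = 0.222) did not. The list's split then became 1 higher and 8 lower, against 3.8% and 25.1% of all genes. With the ciliated cell or the erythroid sum as a covariate 0 of 71 were called, against 1 and 4 of all genes. With only the C57BL/6 samples 6 of 71 were called, against 1458 of 15828 genes.

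The lower genes included 2 Rag GTPases, the lysosomal switches that bring mTORC1 to its activator. Rragd had 30.9, 13.9 and 18.01 CPM in C57BL/6 wild type and 11.7, 6.21 and 6.30 CPM in mutants. Its groups did not overlap, as for 21.9% of all genes with mutants lower, and the replicates spread widely (log2 difference -1.37, SE 0.314, adjusted p = 0.0102 with edgeR). Rragb had 4.05, 2.47 and 2.84 CPM in wild type and 1.63, 1.07 and 1.19 CPM in mutants (-1.27, SE 0.276, adjusted p = 0.00846). Both were highest in wild type replicate 1. That library had the highest C57BL/6 sums of the ciliated cell (37.1 CPM), chondrocyte, secretory and basal epithelium, olfactory neuron and neutrophil markers. Their part in the result was not tested. A fit with the ciliated cell sum cannot separate that sum from genotype, because it did not overlap between genotypes in C57BL/6. With the ciliated cell sum as a covariate Rragd stood at 0.32 (adjusted p = 0.871) and Rragb at -0.35 (adjusted p = 0.954), and 1 of all genes was called. With the erythroid sum Rragd stood at -1.78 (adjusted p = 0.5) and Rragb at -1.72 (adjusted p = 0.431), and 4 of all genes were called. The Rragd call was also lost without mutant replicate 6 (adjusted p = 0.0504) and with only the C57BL/6 samples (adjusted p = 0.0614). Tti1, part of the chaperone complex that assembles mTOR, was the third lower gene (-0.23, adjusted p = 0.0447), and its call was lost with any 1 C57BL/6 library left out, at adjusted p of 0.0503 to 0.193.

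By list, against 23.9% of all genes called and 11.3% called higher in C57BL/6, the Rag GTPases and Ragulator had 6 of 13 called in C57BL/6, 4 higher and 2 lower. The amino acid sensors and GATOR had 2 of 14, both higher. Insulin and growth factor input had 2 of 10, mTORC1 targets 2 of 13, mTORC2 targets 2 of 7, and TSC and Rheb 1 of 7, all higher; assembly and turnover had 1 of 7, lower. In BALB/c, 0 of 71 were called by edgeR, against 0.136% of all genes, and 0 by DESeq2, against 2%. There 4 of 71 had an unadjusted p under 0.05, against 11.7% of all genes. Averaged over strains 3 of 71 were called, against 7.99% of all genes: Pik3r1 (0.29, adjusted p = 0.00408) and Flcn (0.17, adjusted p = 0.0346) higher, and Rragb (-0.78, adjusted p = 0.0341) lower. The interaction called 5 of 71, against 10% of all genes. Among these 5 were Flcn (-0.41, adjusted p = 0.0158), the mTORC2 target Ndrg1 (-0.28, adjusted p = 0.0182), Pik3r1 (-0.34, adjusted p = 0.0356) and Rragd (1.58, adjusted p = 0.046). In C57BL/6 the first 3 were higher in mutants, by 0.38, 0.18 and 0.46 on the log2 scale, and Rragd was lower. In BALB/c none of these 4 was called, and the log2 differences of Flcn, Ndrg1 and Pik3r1 were -0.04, -0.10 and 0.12. With total counts the interaction calls were 3, all positive, as 10.3% of all genes were, and Flcn (adjusted p = 0.242), Ndrg1 (adjusted p = 0.711) and Pik3r1 (adjusted p = 0.287) were not among them. The averaged Flcn and Rragb calls, and the Rragd and Pik3r1 interaction calls, were each lost in 8 or 9 of 12 fits that left out 1 library. The Ndrg1 interaction call was lost without replicate 6 (adjusted p = 0.0565) or 17 (0.0558), both mutants.

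**Figure D5:**
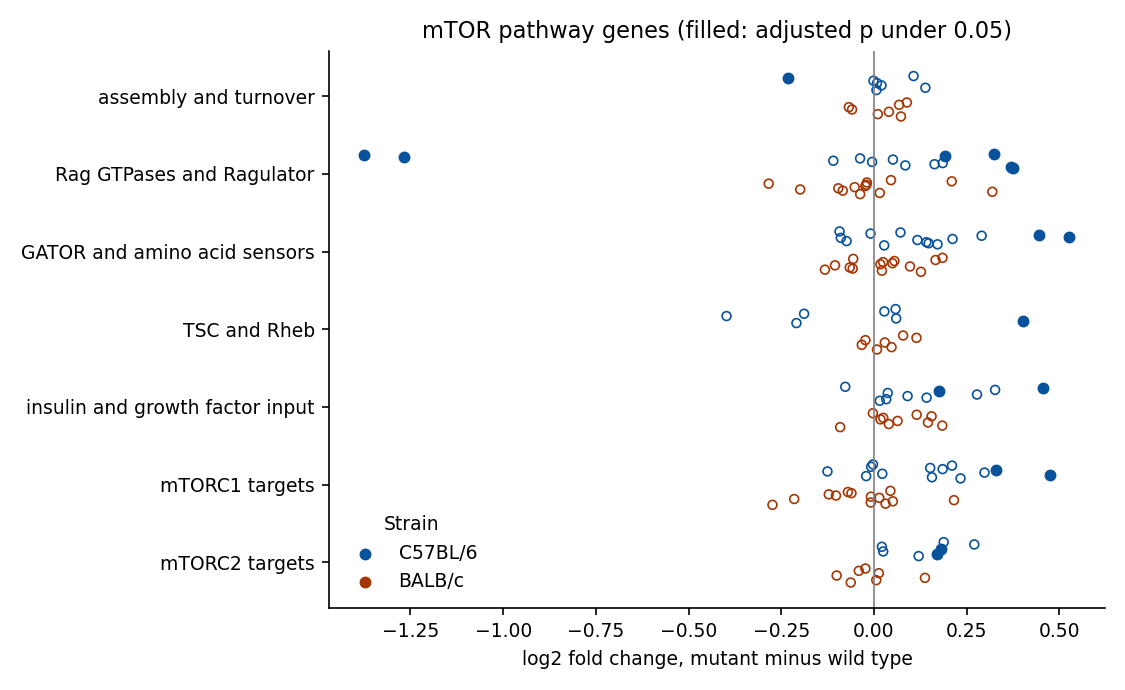
Genotype effect as a log2 fold change, mutant minus wild type (x axis), for the 71 pathway genes in 7 lists (rows), in C57BL/6 (blue) and BALB/c (brown); filled circles have an adjusted p under 0.05 and open circles do not. The 16 filled points are all C57BL/6, 13 right of 0 and 3 left of 0, of which Rragd and Rragb at -1.37 and -1.27 are the farthest.

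Between strains, 42 of 71 pathway genes were called in wild type, 22 higher and 20 lower in BALB/c, against 48.5% of all genes. With total counts the split was 10 higher and 26 lower, against 13.7% and 30.3% of all genes. Ndrg1 (0.61), Flcn (0.53) and Pdcd4 (0.48) were higher in BALB/c. Igf1r, the receptor for insulin-like growth factor 1 (-0.72), Pdpk1, the kinase that phosphorylates Akt at its activation loop (-0.52), and Tsc2, the brake on Rheb (-0.35), were lower. These 6 had adjusted p between 2.1e-06 for Ndrg1 and 0.000209 for Pdcd4. In mutants 26 of 71 were called, 6 higher and 20 lower in BALB/c, against 36.9% of all genes, and with total counts 11 higher and 12 lower, against 24.9% and 11.8%. Ndrg1 (0.33), Lamtor4 (0.41) and Rheb (0.28) were higher in BALB/c mutants, and Pdpk1 (-0.54), Tsc2 (-0.33) and Sesn3, of the sestrin family of nutrient stress sensors (-0.74), were lower. The Lamtor4 call was lost with the GC and length offsets (0.19, adjusted p = 0.189). With the erythroid sum as a covariate 0 of 71 were called between mutants, against 9 of all genes, and Lamtor4 stood at -0.38. With the ciliated cell sum 7 of 71 were called between wild types, against 8.29% of all genes.

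Around Deptor on chromosome 15, the 3 genes on each side of it in the table were Taf2, Dscc1 and Gm9920 on the left and Col14a1, Mrpl13 and Mtbp on the right. Gm9920 (chr15:55099917-55113582, minus strand) overlaps the first bases of Deptor. The strand setting of the counting is not given in the sources used here, so reads from the 2 genes cannot be told apart in the overlap. Its counts were 8 to 10 in C57BL/6 wild type, 16 to 26 in C57BL/6 mutants, 2 to 8 in BALB/c wild type and 14 to 20 in BALB/c mutants. At these low counts the mutants were above the wild type libraries with no overlap in either strain, as for 19.7% of all genes in C57BL/6 and 9.93% in BALB/c. Averaged over strains the log2 difference of Gm9920 was 1.22 (SE 0.32), which is given as a description with no test. Its reads in the overlap may be among those for which Deptor was chosen. All its wild type counts were also at or under the filter's minimum count of 10, so it entered the fit through its mutant libraries. The other 5 neighbours were not called by genotype in C57BL/6, in BALB/c or on average with TMM scaling and all libraries. With total counts, Col14a1 (-0.72, adjusted p = 0.03) and Mtbp (-0.33, adjusted p = 0.0278) were called lower in C57BL/6 mutants, and Col14a1 also without mutant replicate 6 (-0.79, adjusted p = 0.0396).

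The genes whose pattern was most like that of Deptor were found by Pearson's r of log2 CPM over the 12 libraries after each strain's mean was subtracted, among 12910 genes with a mean of at least 1 CPM. They were Zcchc6, also known as Tut7, an RNA uridylyltransferase (r = 0.974), Gabpb2, a subunit of the ETS-family factor GABP (0.967), Heg1, a cardiovascular membrane protein (0.952), Foxn3, a forkhead repressor (0.950), and Dpysl3, a cytoskeletal protein of neurons (0.946). Foxn3, for example, averaged 20.6 and 29.7 CPM in C57BL/6 wild type and mutants and 5.32 and 10.5 CPM in BALB/c wild type and mutants. Among the partners the likeness was greatest for Mtor (r = 0.775), followed by Rptor (0.473), Prr5 (0.362), Rictor (0.355), Akt1s1 (0.132), Mlst8 (0.121), Prr5l (-0.103) and Mapkap1 (-0.508). These correlations are descriptions over 12 libraries that share 4 group means.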

How the data were processed

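RNA from 12 samples in 4 groups of 3 was sequenced as mRNA libraries, per the labels' protocols. The submitters' processing notes name bcl2fastq, TopHat2 2.0.6, HTSeq, DESeq2 and build mm10; the annotation and strand setting are not given in the sources used here. The authors deposited gene counts and RPKM values for 23358 genes, and a DESeq2 table of log2 fold changes with p-values and q-values, from which only rows of the named genes are quoted. The table's gene length column and RPKM were the authors' own; RPKM served to compare levels between genes.

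The deposited counts were fitted with edgeR 4.0.16 (R 4.3.3, limma 3.58.1): TMM scaling, filterByExpr (minimum count 10, total 15), 1 mean per group over all 12 samples, the quasi-likelihood test, and Benjamini-Hochberg adjustment over the 16190 genes kept, called at an adjusted p under 0.05. CPM used TMM library sizes, and standard errors came from the F statistic. The fit was checked on simulated counts. Library totals of 27181658 to 46521546 counts leave genes under a few pairs imprecise.

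Alternatives were RLE scaling, total counts, no filter, DESeq2 1.42.0, limma-voom, halved counts, covariates (Y-linked, ciliated cell, erythroid and skeletal muscle marker sums), only the groups compared, each sample left out, and, added later, GC and length offsets. For the pathway, the rule named at most 3 called genes of smallest p in each direction per comparison, and for likeness the 5 genes of highest r. Older symbols were matched for 5 listed genes. The genes and lists were chosen with earlier results of these data known. No protein sequence was used.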

Additional observations from a re-analysis of the deposited data

Results flagged for a closer look

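The genotype effect of Akt1s1, mutant minus wild type, differed between the strains by -0.335 on the log2 scale, taken as BALB/c minus C57BL/6. It was 0.30 in C57BL/6 and -0.04 in BALB/c. The effect of Prr5l differed by -0.539, from 0.34 in C57BL/6 to -0.20 in BALB/c. Both differences passed edgeR's interaction test, and neither passed with total-count scaling. The Akt1s1 call was lost in 9 of the 12 fits that each left out 1 library, and the Prr5l call in 4 of them.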

How the results depend on the processing

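No paired analysis was possible because the replicate numbers are not shared between groups. The Deptor genotype difference, whose direction chose the gene, ran over the settings from 0.50 to 0.91 in C57BL/6, 1.77 to 2.33 in BALB/c and 1.24 to 1.52 on average. In C57BL/6 the Deptor SE rose from 0.26 to 0.53 with the ciliated cell sum (0.91) and 0.94 with the erythroid sum (0.69). In C57BL/6 the 3 partner calls became 0 with the ciliated cell sum, the erythroid sum or only the groups compared, and 1 with the muscle sum; leaving out 1 library gave 1 to 3. The 16 pathway calls became 9 with total counts, 0 with the ciliated cell or erythroid sum and 6 with only the groups compared, and 6 to 17 with 1 library left out. In BALB/c leaving out 1 library gave 0 partners and 0 to 1 pathway gene. On average, partners went from 0 to 1 with total counts (Mapkap1) or GC and length offsets (Akt1s1). Pathway calls went from 3 to 5 with RLE, no filter or voom, 8 with DESeq2, 6 with the offsets and 0 with the ciliated cell or erythroid sum; 1 to 10 with 1 library left out. For the interaction, partners went from 2 to 0 with total counts and with each of the ciliated cell, erythroid and muscle sums, and 1 with no filter or the offsets; 0 to 2 with 1 left out. Pathway interaction calls went from 5 to 3 with total counts or the Y-linked sum, 9 with DESeq2 and 0 with the ciliated cell, erythroid or muscle sum; 1 to 9 with 1 left out. Between wild types, the ciliated cell sum left 3 partners of 6 and 7 pathway genes of 42, as calls over all genes went from 7847 to 1342; 5 to 6 and 30 to 44 with 1 left out. Between mutants, the erythroid sum left 0 and 0, as calls over all genes went from 5968 to 9, and the offsets 2 partners of 5; 4 to 6 and 21 to 24 with 1 left out. Calls over all genes moved too: in C57BL/6 from 3867 to 1 with the ciliated cell sum, 4 with the erythroid sum, 2154 with the muscle sum and 1458 with only the groups compared; in the interaction from 1626 to 8, 1 and 248 with these 3 sums; on average from 1294 to 30 and 31 with the first 2. Among called results, signs reversed for the Akt1s1 interaction with the erythroid sum (0.0203), Rictor between wild types with the offsets (0.17), Rragd with the ciliated cell sum (0.32 in C57BL/6, -0.17 in the interaction) and Lamtor4 between mutants with the erythroid sum (-0.38). The partners not called in C57BL/6 (Mtor, Rptor, Mlst8, Mapkap1 and Prr5) each took both signs over the settings. The cause was not tested. Depth limits Deptor in BALB/c wild type, at 6 to 14 pairs.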
